A study of Mus musculus with 2 samples.

Results

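Genes of the lysosome were followed across the cell types of a malignant pleural effusion: the subunits of the proton pump, 8 membrane proteins, 23 hydrolases with their cofactors, and 2 transcription factors. The members were taken by name, as every gene whose symbol begins with Atp6v0 or Atp6v1 and 34 listed symbols, with at least 20 UMIs (single RNA molecules counted by their barcodes) over both libraries. Of 56 matching genes among the 27998 listed, 50 met the minimum. The other 6 had 0 UMIs in both libraries: the pump paralogues Atp6v0a4, Atp6v0e2, Atp6v1b1, Atp6v1c2, Atp6v1e2 and Atp6v1g3. The 50 comprise 9 genes of the V1 part of the pump, 8 of its V0 part, 8 membrane proteins, 23 hydrolases and cofactors and 2 regulators.

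The lysosome is the acidic compartment in which material taken up by phagocytosis, dead cells included, is broken down. The vacuolar proton pump acidifies it: its V1 part, on the cytosolic side, splits ATP, and its V0 part, in the membrane, passes protons inward. Hydrolases that work at low pH then cut sugars, lipids, proteins and nucleic acids, membrane glycoproteins such as Lamp1 and Lamp2 line the compartment, and the transcription factors Tfeb and Tfe3 are known activators of many lysosomal genes, through sites built on the letters CACGTG. In macrophages the compartment finishes efferocytosis, the uptake of dying cells named in the series title.

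The samples are 2 single-cell libraries of 1 group, mice given 150000 LLC cells (Lewis lung carcinoma, a mouse tumour line) in 100 µl of saline into the pleural space, with fluid collected on day 10. Live cells positive for CD45, a leukocyte marker, and CD11b, a myeloid marker, were sorted and run on a 10x Genomics 3' end kit. There is no tumour-free sample, so all comparisons lie between cell types within the effusion. No genotype or age is given in the labels, and nothing in them says that the libraries come from separate animals. Differences between the 2 libraries that all types share are taken out by the model. The p-values measure how far differences between types vary from library to library, pooled over the types, and that spread may be technical.

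The first library had 11543829 UMIs in 1141 barcodes, with a median of 9894, and the second had 20322996 in 2908, with a median of 1954.5; 4 barcode sequences occurred in both. Library 2 also carries counts of 2 CD45 antibody tags, BC2 and BC3, that the labels do not explain, and these split by cell type (side taken from the tag with more counts): 1456 of 1478 gated neutrophils lay on the BC3 side and 132 of 133 Folr2 macrophages on the BC2 side. The resident macrophages of library 2 lay on both sides, 10 on BC2 and 10 on BC3. Cells were assigned to types by gates on marker genes, none of them a member. Resident macrophages (gated on Alox15, Prg4, Gata6 and 4 further genes) numbered 28 and 20 cells in libraries 1 and 2 with 294296 and 412965 UMIs. Folr2 macrophages (C1q genes with Folr2, Cd163, Cbr2 or Lyve1) numbered 201 and 133, monocyte-derived macrophages (C1q genes with monocyte genes and little of the Folr2 set) 51 and 181, monocytes 120 and 293, dendritic cells 139 and 41, and neutrophils 73 and 1478. The Folr2 gate set no limit on monocyte genes. Their median was 31.5 and 68.6 per 10000 UMIs of a cell in Folr2 macrophages of libraries 1 and 2. In monocyte-derived macrophages, whose gate asked for at least 20, it was 57.1 and 102.8. The gates left 462 and 544 cells without a type.

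The gated types carried their defining markers, most of which the gates used, so these levels describe the gates and are no independent check. Gata6, the transcription factor of large resident cavity macrophages, stood at 74.8 and 55.7 CPM (a gene's UMIs as counts per 1e+06 UMIs of the class) in resident macrophages of libraries 1 and 2 and had 0 UMIs in the other 5 types. Folr2 stood at 377 and 198 CPM in Folr2 macrophages and at 0 and 1.41 CPM in monocyte-derived macrophages. C1qa stood at 1331 and 1426 CPM in monocyte-derived macrophages against 11.1 and 9.39 CPM in monocytes. Neutrophil RNA was dominated by a few genes, with S100a8 at 134088 and 73545 CPM.

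The promoters of several members carry the core letters read by Tfeb and Tfe3, and stretches of 6 of them, from the membrane, hydrolase and pump groups, are shown so that the matches can be seen. RefSeq promoter windows (build GRCm38.p6, 250 bases before to 50 after the start, 300 bases in all) were matched for 42 of the 50 members. The motif TCACGTG, searched on both strands, was in the window of 13 of these 42 members (31%) and of 1160 of all 27025 genes (4.29%). The shorter CACGTG, which it contains, was in the same 13 members and in 8.09% of all genes, and the longer TCACGTGA was in 5 members (Atp6v0d1, Atp6v0e, Atp6v1a, Gla and Mcoln1) and 1.12% of all genes. The 13 were Atp6v0b, Atp6v0d1, Atp6v0e and Atp6v1a of the pump, Lamp1 and Mcoln1 of the membrane, and the hydrolases Arsa, Gaa, Gla, Glb1, Lgmn, Naglu and Sgsh. Of these 13, Arsa, Gaa, Glb1 and Naglu were higher in resident than in Folr2 macrophages, Lgmn was lower, 6 were not called and 2 (Mcoln1 and Sgsh) were not tested. Over all genes tested in that comparison, 5.94% were higher and 3% lower. Whether the letters go with the levels was not tested. A match is a run of letters and not a measured binding site. In the stretches below, given 5′ to 3′ in the gene's direction, capitals mark the matches.
Lamp1 (chr8:13159087-13159160, plus strand): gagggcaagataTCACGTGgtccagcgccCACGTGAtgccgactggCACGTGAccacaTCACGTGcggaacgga
Glb1 (chr9:114401002-114401061, plus strand): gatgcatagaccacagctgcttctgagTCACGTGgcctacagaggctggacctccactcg
Gaa (chr11:119267795-119267854, plus strand): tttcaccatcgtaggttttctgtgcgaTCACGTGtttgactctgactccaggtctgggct
Arsa (chr15:89477426-89477468, minus strand): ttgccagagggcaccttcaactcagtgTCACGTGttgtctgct
Gla (chrX:134601182-134601245, minus strand): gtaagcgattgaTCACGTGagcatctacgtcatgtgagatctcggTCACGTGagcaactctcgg
Atp6v0b (chr4:117887334-117887384, minus strand): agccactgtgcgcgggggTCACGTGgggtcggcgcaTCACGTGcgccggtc
The Lamp1 stretch held 4 matches, those of Gla and Atp6v0b 2 each, and those of Glb1, Gaa and Arsa 1 each; the window of Naglu held 1, 74 bases before the start. The windows of Scarb2, Laptm5, Man2b1, Fuca1 and Tfe3, the other members called in that comparison, held none of these letters.

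Across the 6 gated types with macrophage, monocyte, dendritic or neutrophil identity, the 3 role groups had different profiles (heat map of the tested members). The summed level of the 17 pump genes was 3109 and 2492 CPM in resident macrophages of libraries 1 and 2, 2766 and 2680 in Folr2 macrophages, 2700 and 2596 in monocyte-derived macrophages, 2914 and 2750 in monocytes, 2009 and 2313 in dendritic cells and 3051 and 3478 in neutrophils. The summed level of the 23 hydrolase genes was 6086 and 7032 CPM in resident macrophages, 6955 and 6963 in Folr2 macrophages, 6045 and 7560 in monocyte-derived macrophages, 5044 and 7024 in monocytes, 4456 and 5156 in dendritic cells and 1309 and 2001 in neutrophils. The summed hydrolase levels of the macrophage types and monocytes thus overlapped, and those of neutrophils lay below all others. Psap and Lgmn weigh most in these sums, with 74126 and 39714 UMIs over both libraries against 18915 for Grn, the next. The sums therefore say little about sparse hydrolases. The 8 membrane genes summed to 4390 and 4337 CPM in resident macrophages, above every other type in both libraries, and to 1363 and 1759 CPM in neutrophils. Of the 50 members, 29 had the same highest type in both libraries: 17 were highest in resident macrophages (13 hydrolases, 3 membrane genes and Atp6v0d1), 4 in neutrophils (Atp6v0a1, Atp6v1g1, Neu1 and Ppt1), 3 in dendritic cells (Gm2a, Arsb and Atp6v0a2), 2 in Folr2 macrophages (Lgmn and Atp6v1c1), 2 in monocytes (Atp6v1d and Tfeb) and 1 in monocyte-derived macrophages (Mcoln1). Of the 44 members tested, 17 were highest in resident macrophages in both libraries, 4 in neutrophils and 2 in dendritic cells, where 14.4%, 13.9% and 9.92% of all 7945 genes tested were.

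**Figure D1:**
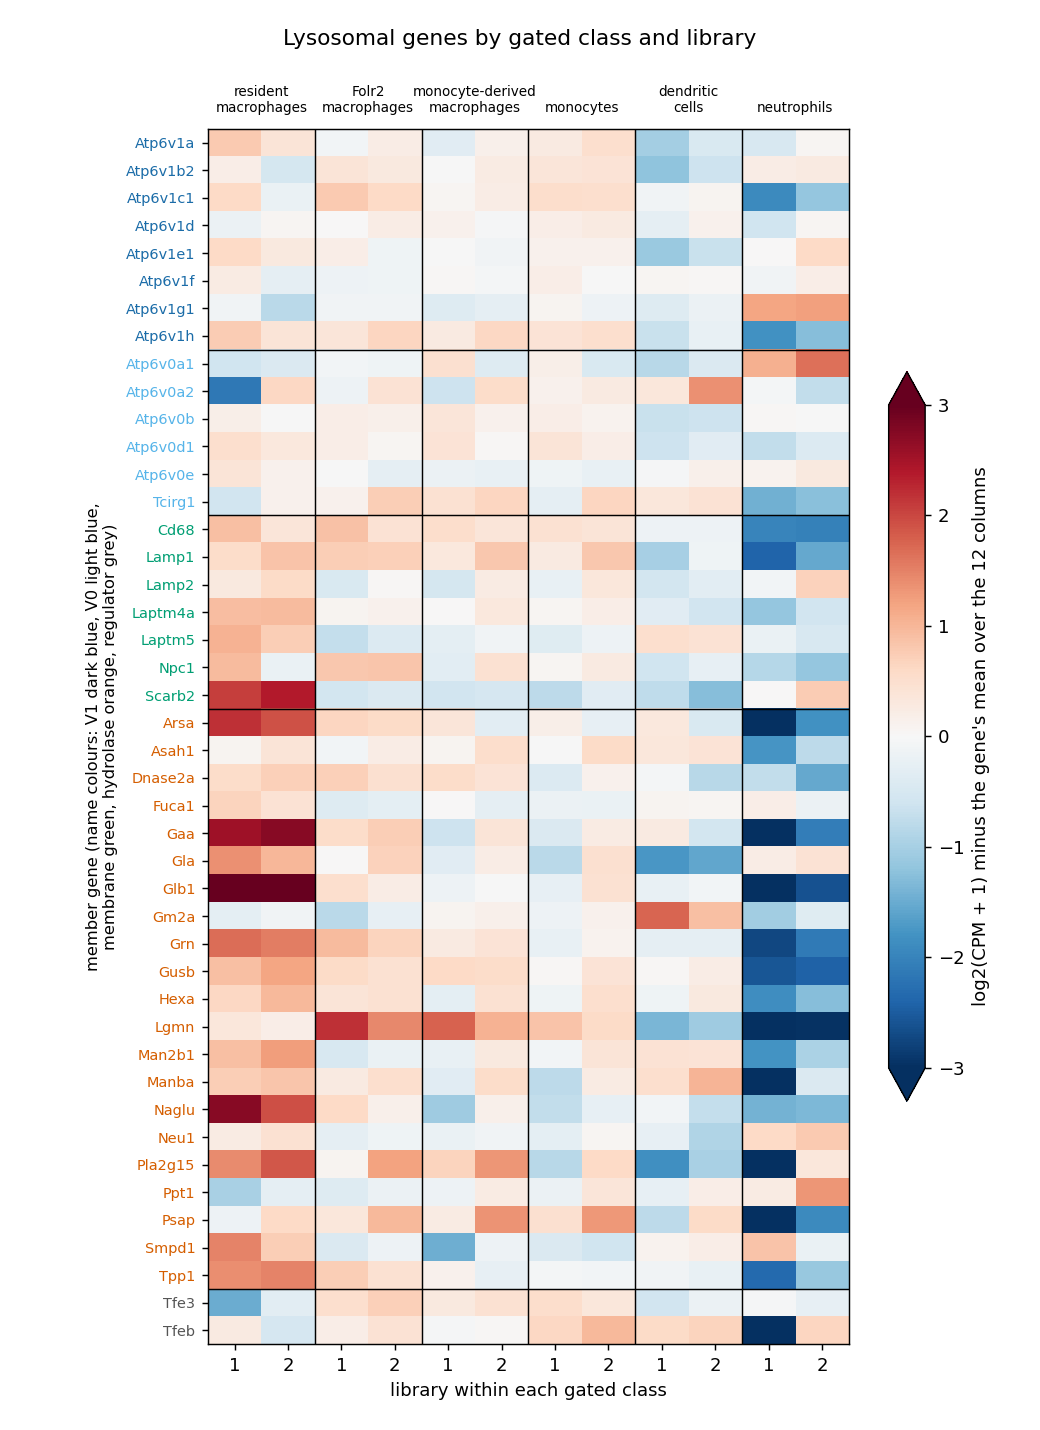
Level of each of the 44 tested members (rows, grouped by role) in each of 6 gated classes and 2 libraries (columns), as log2(CPM + 1) minus the gene's mean over the 12 columns; colours saturate at 3 in either direction. Scarb2, Glb1, Gaa and Naglu are highest in both resident columns, Lgmn in Folr2 macrophages, and most hydrolase rows are lowest in neutrophils.

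Resident macrophages differed from Folr2 macrophages in a set of hydrolases, 2 membrane proteins and 1 regulator. Of the 44 members with enough counts to test, edgeR's quasi-likelihood test called 10 at an adjusted p under 0.05 (Benjamini-Hochberg over all genes), 8 higher and 2 lower in resident macrophages, and 16 had an unadjusted p under 0.05 (20.6% of all genes). Over all 7945 genes tested, 8.94% were called, 5.94% higher and 3% lower. The median log2 fold change was 0.33 over the tested members and -0.04 over all genes, and the members' median was 0.13 with Leiden clusters, 0.16 without the filter on low counts and 0.21 with the stricter gates. By role, 6 of 21 hydrolases were higher and 1 was lower, 2 of 7 membrane genes were higher, 0 of 14 pump subunits were called and 1 of 2 regulators was lower. With 8.94% of all genes called, a count of 0 among 14 is near the background. The role groups were not tested against each other.

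Scarb2, the membrane receptor that carries glucocerebrosidase to the lysosome, and Glb1 had the highest fitted values, which did not differ beyond their errors. The Scarb2 gene lies on chromosome 5 at 92441314-92506833 (GENCODE M21, mm10). Scarb2 stood at 452 and 555 CPM in resident macrophages of libraries 1 and 2 (mean 503 ± 72.5, SD, n = 2), against 72.4 and 78.2 CPM in Folr2 macrophages, 70.8 and 75 in monocyte-derived macrophages and 61.8 and 84.1 in monocytes. Both resident values lay far above all 6 of the others, which overlapped. The log2 fold change over Folr2 macrophages was 2.72 (SE 0.32, n = 2 libraries, 6.58-fold), with an edgeR adjusted p of 5.23e-05.

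Among the sugar-cleaving enzymes, Glb1, the β-galactosidase, stood at 112 and 114 CPM in resident and at 19.3 and 15.7 CPM in Folr2 macrophages, a log2 fold change of 2.66 (SE 0.34, edgeR adjusted p = 7.89e-05). These values rest on 33 and 47 UMIs in the resident class. Gaa, the α-glucosidase that degrades glycogen, stood at 78.2 and 89.6 CPM against 19 and 21.8, a log2 fold change of 2.03 (SE 0.40, edgeR adjusted p = 0.00278). Both genes hold the promoter letters shown above. Naglu, which cuts N-acetylglucosamine from heparan sulfate, stood at 122 and 70.2 CPM against 27.3 and 19.8, with a log2 fold change of 1.99 (SE 0.39, edgeR adjusted p = 0.00286). Man2b1, the α-mannosidase, stood at 313 and 399.6 CPM against 119 and 146, with a log2 fold change of 1.41 (SE 0.30, edgeR adjusted p = 0.00561). In each of these 4 genes both resident libraries lay above both Folr2 libraries.

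Arsa, the sulfatase that degrades sulfatide, stood at 44.2 and 36.3 CPM in resident and 14.4 and 13.7 in Folr2 macrophages (log2 fold change 1.49, SE 0.42, edgeR adjusted p = 0.0314). Fuca1, the fucosidase, stood at 289 and 245 CPM against 138 and 146 (log2 fold change 0.89, SE 0.25, edgeR adjusted p = 0.0324). Laptm5, a lysosomal membrane protein of leukocytes, stood at 1312 and 1053 CPM against 386 and 475 (log2 fold change 1.45, SE 0.26, edgeR adjusted p = 0.00172). Dendritic cells also carried Laptm5 at 907 and 862 CPM; the difference between resident and dendritic cells was not tested. Fuca1 kept its call under 5 of the 11 alternative analyses and Arsa under 7.

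2 members were lower in resident macrophages. Lgmn, the asparaginyl protease legumain on chromosome 12 (102394084-102439813), stood at 731 and 663 CPM in resident macrophages and at 2649 and 1568 in Folr2 macrophages, a log2 fold change of -1.60 (SE 0.35, edgeR adjusted p = 0.00673). Tfe3 stood at 10.2 and 24.2 CPM (3 and 10 UMIs) against 44 and 50.4, a log2 fold change of -1.41 (SE 0.36, edgeR adjusted p = 0.0216), and the call held under 7 of the 11 alternatives. Tfeb, the other regulator, stood at 17 and 9.69 CPM against 16.3 and 19.4, with a log2 fold change of -0.48 (95% interval -1.70 to 0.74); the interval is wide because the resident class held 5 and 4 UMIs of the gene.

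**Figure D2:**
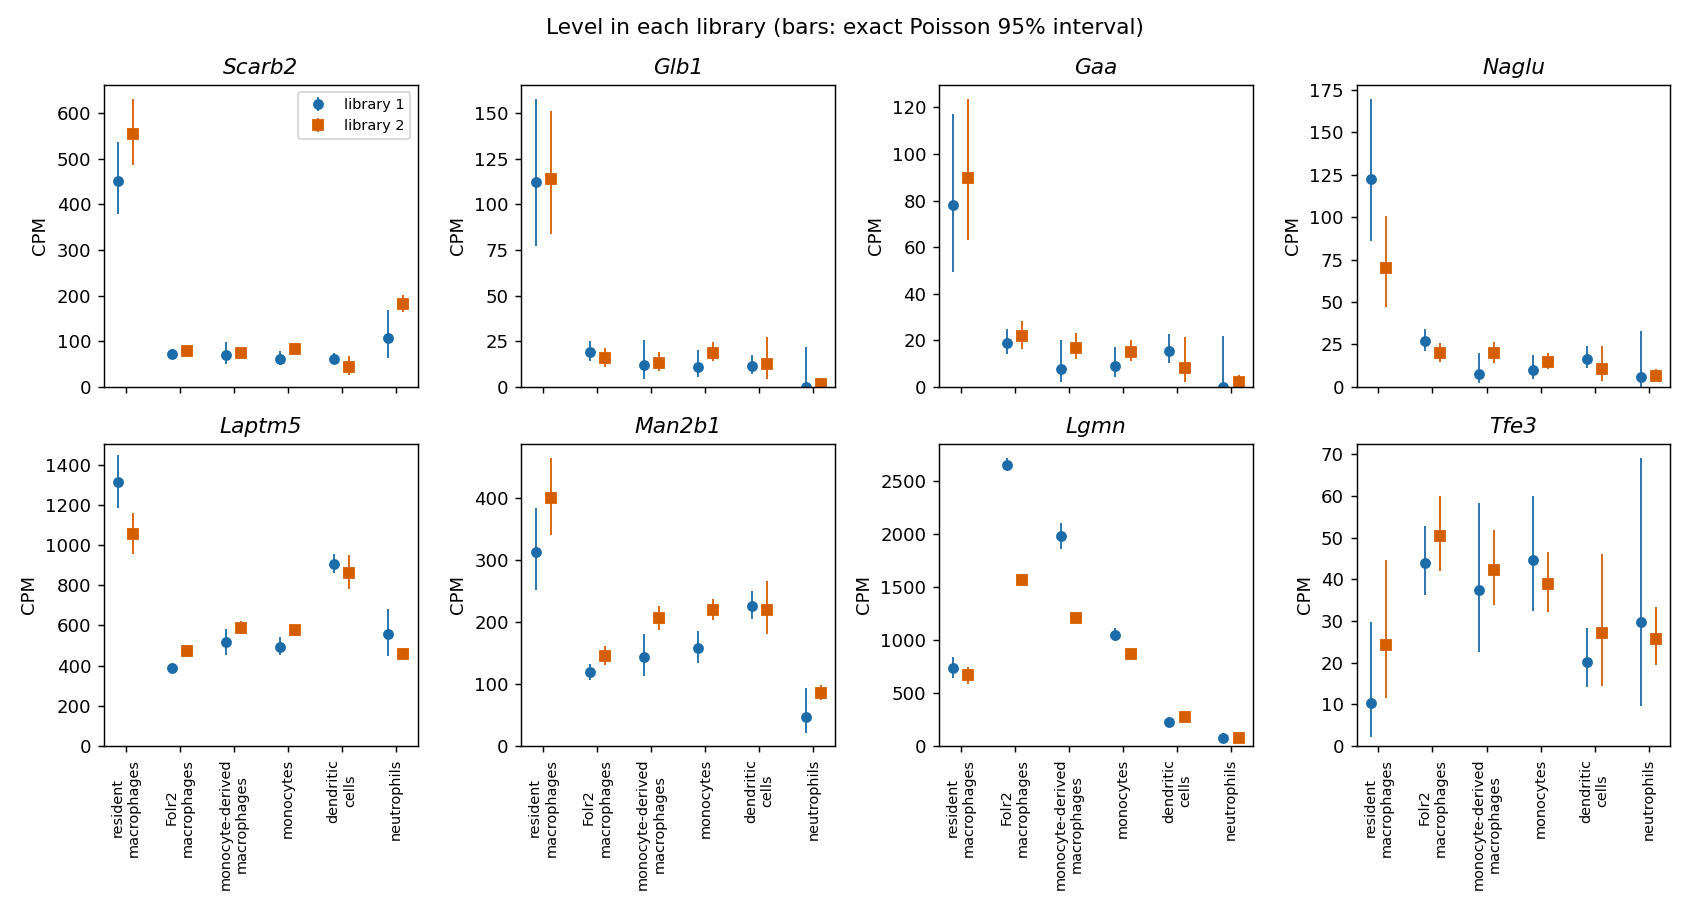
Levels in CPM of 8 members in each gated class, circles for library 1 and squares for library 2, with exact Poisson 95% intervals that cover counting error only; each panel has its own axis from 0. Scarb2, Glb1, Gaa, Naglu, Laptm5 and Man2b1 are highest in resident macrophages, and Lgmn is highest in Folr2 macrophages at 2649 and 1568 and lowest in neutrophils at 71.1 and 73.

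The remaining hydrolases did not pass the test in this comparison. Smpd1 (acid sphingomyelinase, log2 fold change 1.48), Tpp1 (tripeptidyl peptidase, 0.86), Gla (α-galactosidase, 0.84) and Grn (progranulin, 0.78) had unadjusted p under 0.05 with edgeR adjusted p between 0.11 and 0.241, as had the membrane genes Laptm4a (0.82) and Lamp2 (0.64) with edgeR adjusted p of 0.0758 and 0.183. Grn stood at 1536 and 1397 CPM in resident against 922 and 758 in Folr2 macrophages, without overlap. Lamp1, the most widely used lysosomal membrane marker, had a log2 fold change of -0.07 (95% interval -0.67 to 0.54), and Cd68 of -0.03 (-0.72 to 0.66).

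Among the pump subunits the log2 fold changes ran from -0.63 (Tcirg1) to 0.53 (Atp6v1a), with a median of -0.15. Of them 0 had an unadjusted edgeR p under 0.05, as did 20.6% of all genes. No 95% interval of the 14 reached below -1.40 or above 1.34 on the log2 scale, so smaller differences of single subunits cannot be told apart from none. Atp6v1a, the catalytic A subunit, stood at 143 and 109 CPM in resident and 78.5 and 96.4 in Folr2 macrophages. Atp6v0d1, the d subunit, stood at 296 and 259 CPM against 238 and 215, and Tcirg1, form 3 of the a subunit, at 44.2 and 72.6 against 72 and 110.5. DESeq2 called 12 members in this comparison, 11 higher and 1 lower, where it called 773 of all 7945 genes, 542 of them higher.

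Several other measures differed between these 2 classes. Cycling-cell genes (6 markers) summed to 727 and 434 CPM in resident against 78.5 and 43.6 CPM in Folr2 macrophages, and 13 of 28 and 8 of 20 resident cells were cycling by these markers. Without cycling cells, an alternative added after the data were seen, 7 members were called, 6 higher and 1 lower. Of all 7802 genes tested in that alternative, 660 were called, 408 of them higher. Platelet genes (5 markers) summed to 20020 and 5539 CPM in Folr2 and 2871 and 1574 CPM in resident macrophages, almost all from Pf4 and Ppbp, while Gp9, Itga2b and Gp1bb had 0 UMIs in Folr2 macrophages. Neutrophil genes (10 markers) summed to 4258 and 2293 CPM in resident against 2051 and 1972 CPM in Folr2 macrophages, and the part of the platelet and neutrophil genes in these differences was not tested. In library 2, 10 resident cells lay on the BC2 side and 10 on the BC3 side, against 132 and 1 Folr2 macrophages. With library 2 limited to the BC2 side, 9 members were called, 8 higher and 1 lower. Of all 7330 genes tested in that alternative, 576 were called, 402 of them higher. The part of the tags in these differences was not tested. Glb1 shares its strand and position with Tmppe, whose UMIs in resident macrophages were 1 and 4.

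Comparisons of resident macrophages with the other 2 classes, chosen after the first results were seen, share the resident libraries with the one above. Against monocyte-derived macrophages 10 of 44 members were called, 9 higher and 1 lower, where 9.64% of all genes were called (6.33% higher and 3.31% lower). Glb1 (log2 fold change 3.15), Scarb2 (2.78), Gaa (2.62), Naglu (2.54), Arsa (2.17), Tpp1 (1.54), Grn (1.27), Laptm5 (1.09) and Man2b1 (1.02) were higher and Lgmn (-1.19) was lower. With classes rebuilt from Leiden clusters 5 members were called, all higher, where 600 of all 9783 genes were called, 443 of them higher. The calls of Lgmn and Man2b1 held under 6 and 5 of the 11 alternatives. Against monocytes 10 members were called, 9 higher and 1 lower, where 11.6% of all genes were called (7.24% higher and 4.33% lower). Pla2g15, a lysosomal phospholipase, was among the higher genes, with a log2 fold change of 1.67 (SE 0.50, edgeR adjusted p = 0.0391), and Tfe3 was the lower gene (-1.24), a call that held under 3 of the 11 alternatives. The other higher genes were Glb1 (2.83), Naglu (2.80), Scarb2 (2.75), Gaa (2.71), Arsa (2.18), Grn (1.65), Tpp1 (1.51) and Laptm5 (1.12). Lgmn, at 1048 and 868 CPM in monocytes, was not called (log2 fold change -0.49, SE 0.34, edgeR adjusted p = 0.42). In both comparisons 0 of 14 pump subunits were called, a count near the shares of all genes called. An unadjusted edgeR p under 0.05 was found for 0 of the 14, and for 21.9% and 24% of all genes.

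**Figure D3:**
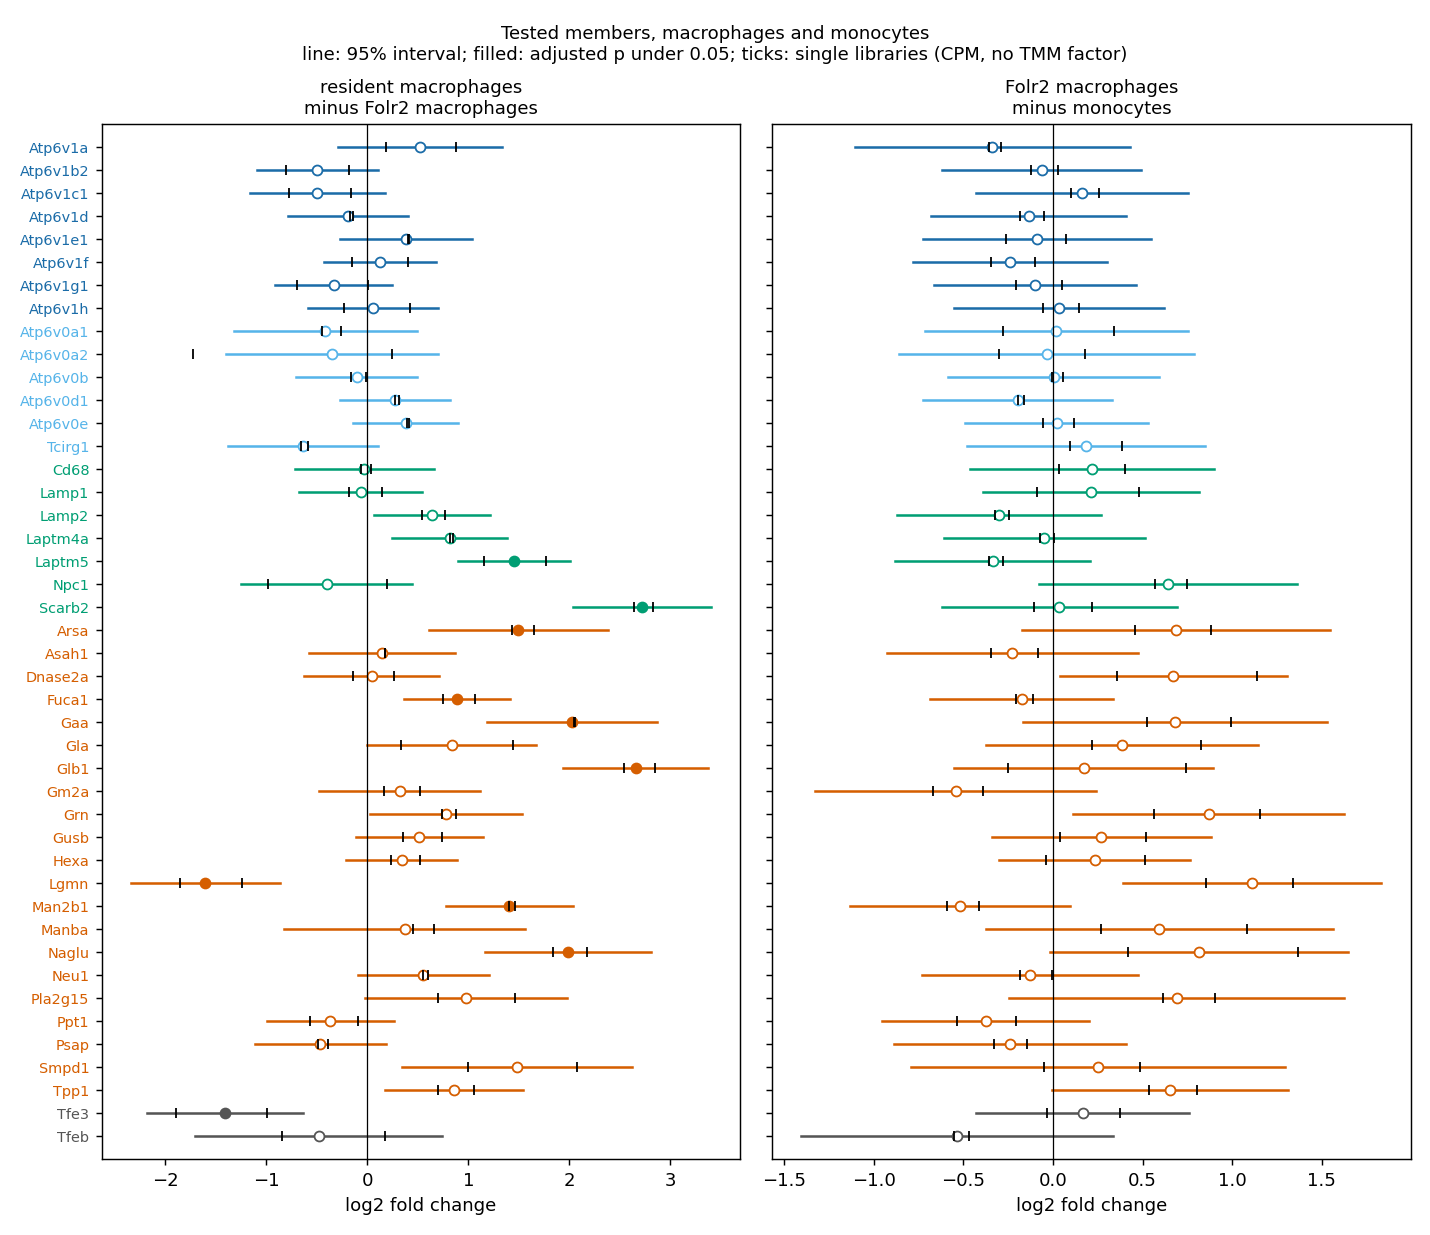
Log2 fold changes of the 44 tested members (coloured by role) for resident minus Folr2 macrophages (left) and Folr2 macrophages minus monocytes (right), on separate x axes; lines are 95% intervals, filled circles have edgeR adjusted p under 0.05 and black ticks are single-library CPM ratios. On the left 10 circles are filled, none of them a pump subunit; on the right none is, and Lgmn lies furthest to the right at 1.11.

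Among Folr2 macrophages, monocyte-derived macrophages and monocytes no member was called by edgeR, in comparisons that called few genes of any kind. Between Folr2 and monocyte-derived macrophages edgeR called 0 of 44 members, and 0 had an unadjusted p under 0.05 (4.27% of all genes did). Over all genes edgeR called 0.0629% (5 of 7945), 0.0503% higher and 0.0126% lower, so the members' count is near the background. DESeq2 called 0 members and 10 of all 7945 genes. The member log2 fold changes ran from -0.65 to 0.68 with a median of 0.10, and the furthest 95% bound of any hydrolase was 1.60. Lgmn stood at 2649 and 1568 CPM against 1976 and 1203, and these values overlapped (log2 fold change 0.41, SE 0.34, edgeR adjusted p = 1.0).

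Between monocyte-derived macrophages and monocytes edgeR again called 0 of 44 members, where 0.0503% of all genes were called (0.0378% higher and 0.0126% lower). DESeq2 called 0 members and 5 of all 7945 genes. An unadjusted edgeR p under 0.05 was found for 1 member and for 2.5% of all genes. That gene was Pla2g15, at 21.6 and 34.7 CPM against 7.09 and 20.8 (log2 fold change 0.99, SE 0.47, edgeR adjusted p = 1.0). The member median was -0.02.

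Between Folr2 macrophages and monocytes edgeR called 0 of 44 members, where 1.13% of all genes were called (0.642% higher and 0.491% lower). An unadjusted p under 0.05 was found for 3 members and for 11.2% of all genes, and DESeq2 called 1 member and 142 of all 7945 genes. The 3 were Lgmn, Grn and Dnase2a. Lgmn stood at 2649 and 1568 CPM against 1048 and 868 in monocytes, with no overlap and a log2 fold change of 1.11 (SE 0.34, edgeR adjusted p = 0.158, from 0.0416 to 0.551 over 11 alternatives). It was the gene that DESeq2 called (adjusted p = 0.0498), and it passed in edgeR with the stricter gates. Grn stood at 922 and 758 CPM against 414 and 513 (log2 fold change 0.87, SE 0.35, edgeR adjusted p = 0.339), and Dnase2a, the acid DNase that degrades the DNA of engulfed cells, at 98.9 and 83.5 against 44.6 and 65 (0.67, SE 0.30, edgeR adjusted p = 0.399). Psap, the precursor of the saposins that help lipid hydrolysis, differed more between libraries than between these types, at 1811 and 2821 CPM in Folr2 macrophages and 1999.5 and 3539 in monocytes. Tfe3 and Tfeb had log2 fold changes of 0.17 and -0.53 with edgeR adjusted p of at least 0.728.

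Folr2 macrophages carried more Lgmn, Psap, Grn and Lamp1 than neutrophils and less Atp6v0a1 and Atp6v1g1. Of 44 tested members 27 were called, 16 higher and 11 lower in Folr2 macrophages, where 54% of all genes were called (28.8% higher and 25.2% lower). An unadjusted p under 0.05 was found for 28 members and 59.4% of all genes, so both counts are near the background. The median log2 fold change was 0.31 over the members and 0.16 over all genes, and the members' median did not stand above that of all genes with Leiden clusters (0.23 against 0.24) or on the BC2 side of library 2 (0.66 against 0.67), nor by more than rounding without the block (0.16 in both). By role, 10 of 21 hydrolases were higher in Folr2 macrophages and 3 lower, 3 of 14 pump subunits were higher and 5 lower, and 3 of 7 membrane genes were higher and 3 lower.

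Lgmn had the highest fitted value, at 2649 and 1568 CPM in Folr2 macrophages and 71.1 and 73 CPM in neutrophils, a log2 fold change of 4.20 (SE 0.40, edgeR adjusted p = 1.21e-06). C1qb, a macrophage marker, stood at 23.7 and 50 CPM in the same neutrophils. Glb1 had 0 and 3 UMIs in neutrophils against 51 and 39, and in library 2 the ratio of levels was 11.6 (exact 95% counting interval 3.7 to 58.9). Its fitted log2 fold change was 3.12 (SE 0.60, edgeR adjusted p = 0.000425). Gaa had 0 and 5 UMIs in neutrophils (log2 fold change 2.66, SE 0.62, edgeR adjusted p = 0.00196) and Arsa 0 and 4 (2.23, SE 0.63, edgeR adjusted p = 0.00704), so these 2 values also rest on few molecules.

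Further hydrolases and membrane genes were higher in Folr2 macrophages. Psap stood at 1811 and 2821 CPM against 178 and 382 in neutrophils (log2 fold change 2.52, SE 0.33, edgeR adjusted p = 2.03e-05). Grn stood at 922 and 758 CPM against 71.1 and 109.9 (2.57, SE 0.39, edgeR adjusted p = 7.65e-05), and Gusb, the β-glucuronidase, at 163 and 151 against 17.8 and 19.8 (3 UMIs in library 1 neutrophils; 2.43, SE 0.36, edgeR adjusted p = 5.55e-05). Lamp1 stood at 1101 and 1082 CPM against 124 and 227 (2.07, SE 0.31, edgeR adjusted p = 5.54e-05) and Cd68 at 647 and 476 against 88.9 and 86 (2.05, SE 0.35, edgeR adjusted p = 0.000203). In all 5 genes the values of the 2 types did not overlap. The other higher members were Npc1 (1.39), Hexa (1.37), Atp6v1h (1.33), Atp6v1c1 (1.32), Dnase2a (1.29), Tpp1 (1.23) and Tcirg1 (1.21), as log2 fold changes.

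Neutrophils carried more of a different set. Atp6v0a1, form 1 of the a subunit, stood at 77 and 118 CPM in neutrophils and 34.5 and 33.1 in Folr2 macrophages (log2 fold change of Folr2 minus neutrophils -2.27, SE 0.36, edgeR adjusted p = 9.76e-05). Atp6v1g1, form 1 of the stalk G subunit, stood at 1084 and 1135 CPM against 443 and 445 (-1.92, SE 0.27, edgeR adjusted p = 4.20e-05). Ppt1, which removes palmitate from proteins, stood at 160 and 341 CPM against 103 and 119 (-1.75, SE 0.29, edgeR adjusted p = 0.000127). Its gene overlaps Cap1 on the opposite strand, which was lower in Folr2 macrophages as well (-0.98, SE 0.27, edgeR adjusted p = 0.00563); no source here says whether counting used strand. Scarb2 (-1.59), the sialidase Neu1 (-1.55), Lamp2 (-1.15), Atp6v0e (-0.95), Fuca1 (-0.94) and Atp6v1f (-0.82) were also lower in Folr2 macrophages than in neutrophils. The 2 other lower calls, Atp6v1e1 and Laptm5, had opposite directions in the 2 libraries.

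**Figure D4:**
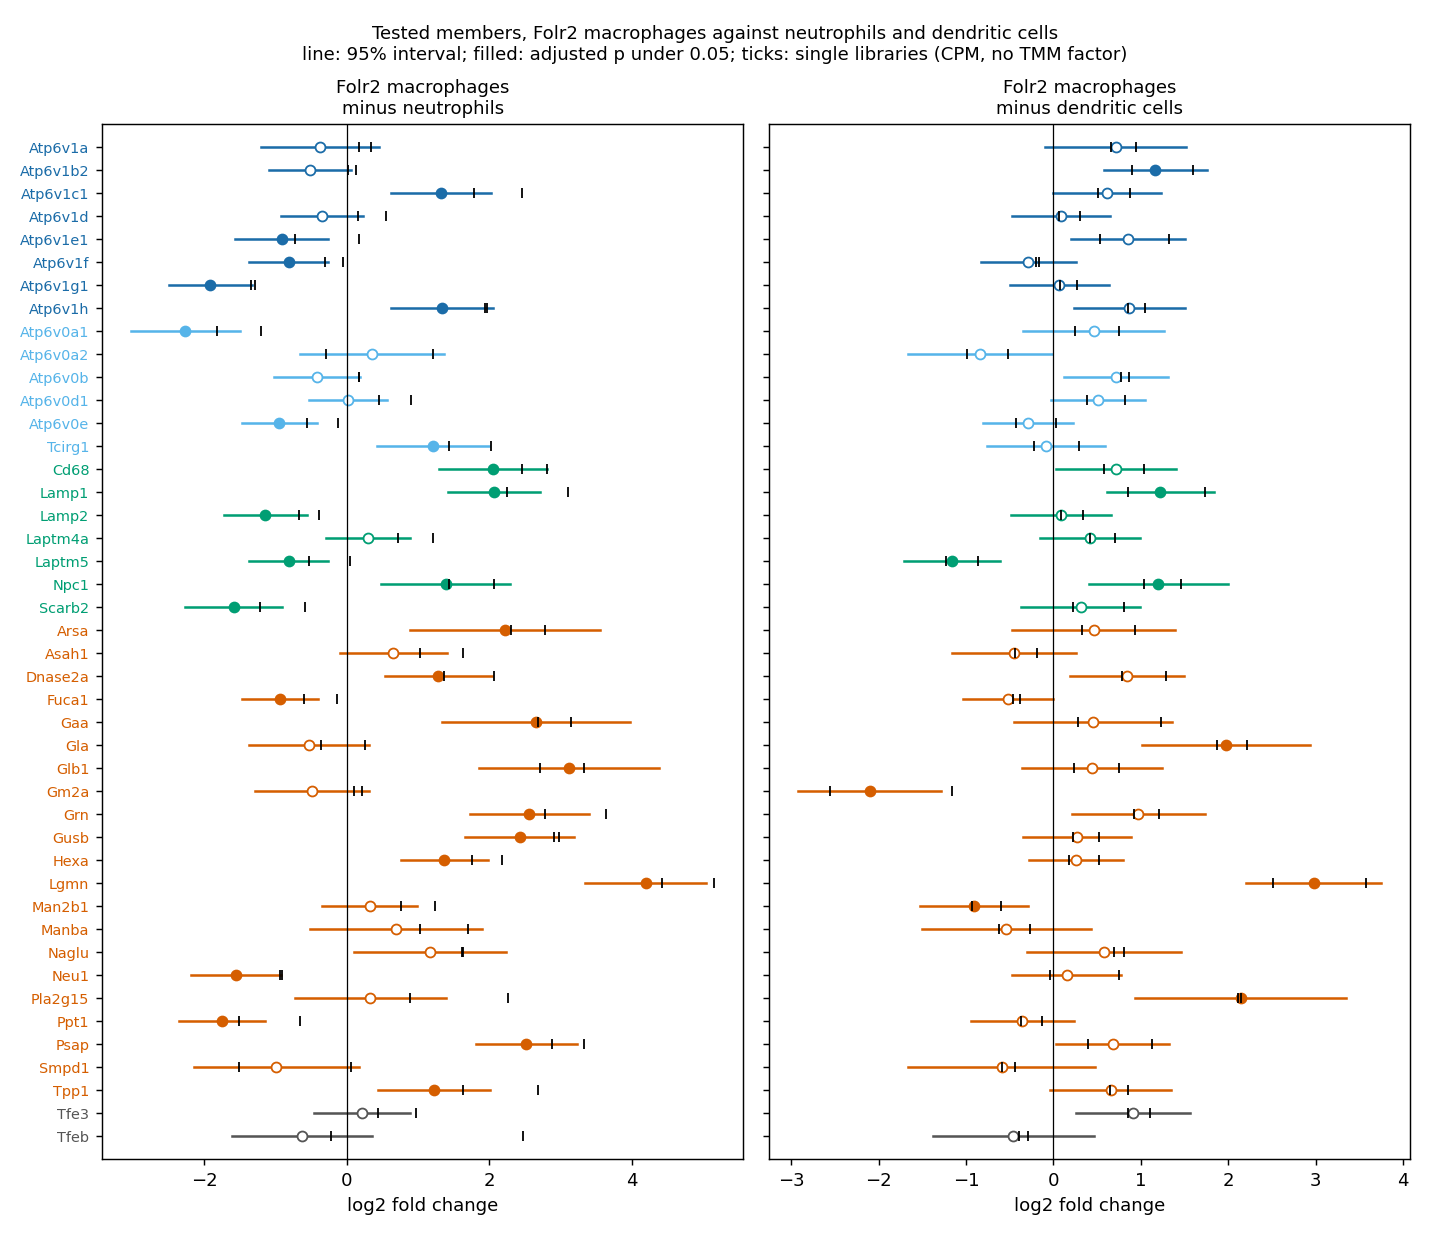
Log2 fold changes of the 44 tested members for Folr2 macrophages minus neutrophils (left) and minus dendritic cells (right), on separate x axes; lines are 95% intervals, filled circles have edgeR adjusted p under 0.05 and black ticks are single-library CPM ratios without the TMM factor. Lgmn lies at 4.20 and 2.98; on the left most black ticks lie to the right of the fitted circles.

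The scale of the neutrophil comparison is less certain than that of the others. Neutrophil marker genes summed to 256400 and 152900 CPM of neutrophil UMIs, and the TMM factors that edgeR applied to the 2 neutrophil libraries were 0.764 and 0.678, against 1.035 and 1.13 for Folr2 macrophages. Modest differences such as that of Atp6v1f (single-library log2 CPM ratios -0.05 and -0.31) rest on that factor. With library 2 limited to cells on the BC2 side, which leaves 22 neutrophils of that library, 15 members were called higher and 4 lower (Atp6v0a1, Atp6v1g1, Ppt1 and Fuca1), and 11 of the 27 calls were lost. Calls over all genes fell as well, to 2420 of 7330 (1553 higher) from 4294 of 7945. Among the lost calls the log2 fold changes of Dnase2a (1.42), Npc1 (1.14) and Arsa (7.17) stayed above 1. The Arsa value was fitted with 0 UMIs in neutrophils of library 1 and only 22 neutrophils left in library 2, so it is no measure of size. Scarb2 (-0.74), Neu1 (-0.84), Lamp2 (-0.58), Tcirg1 (0.61), Atp6v0e (-0.32) and Atp6v1f (-0.34) were nearer 0.

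The genes for the a subunit of the V0 part, which anchors the pump in the membrane and differs between organelles, were used in different proportions by neutrophils. Tcirg1 (form 3), the form known from osteoclasts and phagocyte lysosomes, gave 58.5% (190 of 325 UMIs, exact 95% interval 52.9% to 63.9%) and 65.4% (274 of 419, 60.6% to 69.9%) of the UMIs of the 3 a-subunit genes in Folr2 macrophages. In neutrophils it gave 20% (4 of 20, 5.73% to 43.7%) and 17.4% (60 of 345, 13.5% to 21.8%). Atp6v0a1 made up 28% and 19.6% in Folr2 macrophages and 65% (13 of 20, 40.8% to 84.6%) and 75.7% (261 of 345, 70.8% to 80.1%) in neutrophils. The other 4 types lay with Folr2 macrophages, with Atp6v0a1 between 15.8% and 35.7% and Tcirg1 between 47% and 68%. The 2 genes were called in opposite directions, Tcirg1 with a log2 fold change of 1.21 (SE 0.37, edgeR adjusted p = 0.0122) and Atp6v0a1 with -2.27. On the BC2 side of library 2 the Tcirg1 value was 0.61 with an edgeR adjusted p of 0.288, and over the 11 alternatives that p ran up to this value.

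**Figure D5:**
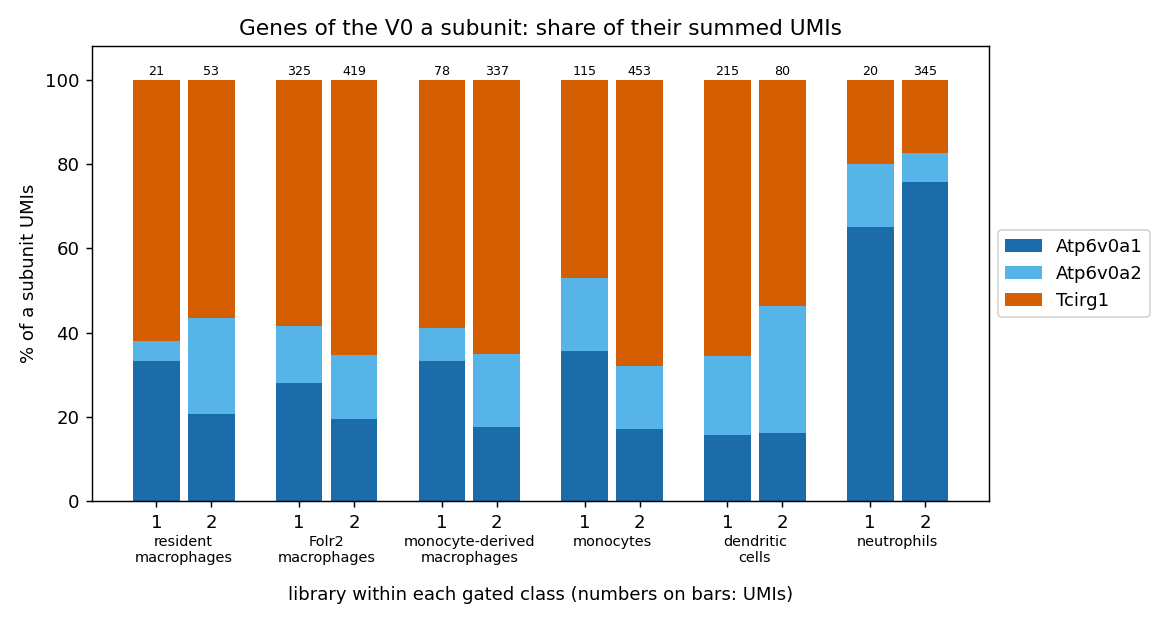
Share of the summed UMIs of Atp6v0a1, Atp6v0a2 and Tcirg1 that each gene gave, per library and gated class; the number on each bar is the summed UMI count. Atp6v0a1 takes 65% and 75.7% in neutrophils and Tcirg1 takes the largest share in all other bars.

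Other subunits with several genes were used through 1 form. For the d subunit, Atp6v0d1 gave 628 of 635 and 533 of 534 UMIs in Folr2 macrophages, and Atp6v0d2, the form known from osteoclasts, gave the other 7 and 1. Atp6v0d2 had 0 UMIs in resident macrophages, monocyte-derived macrophages, monocytes and neutrophils of both libraries. For the G subunit, Atp6v1g2 had 24 UMIs in all cells of both libraries, and its gene overlaps Nfkbil1 on the opposite strand, with 517 UMIs. For the B, C, E and e subunits the second forms had 0 UMIs, and Atp6v1b2, Atp6v1c1, Atp6v1e1 and Atp6v0e stood alone. Atp6v1g2, Atp6v0d2, Atp6v0c, Mcoln1, Sgsh and Arsb had too few counts to test. Atp6v0c, the c subunit of the rotor ring, had 172 UMIs over both libraries, against 15968 for the ring b subunit Atp6v0b. The summed pump levels thus hold little of Atp6v0c, and the reason for its low count was not tested.

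Against dendritic cells, a comparison also added after the first results, Folr2 macrophages had 9 of 44 members called, 6 higher and 3 lower, where 14.5% of all genes were called (5.98% higher and 8.5% lower). An unadjusted p under 0.05 was found for 19 members and 26.3% of all genes. Lgmn (log2 fold change 2.98), Pla2g15 (2.14), Gla (1.97), Lamp1 (1.22), Npc1 (1.20) and Atp6v1b2 (1.17) were higher in Folr2 macrophages. Gm2a, the activator protein of ganglioside breakdown, stood at 1682 and 941 CPM in dendritic cells against 285 and 421 in Folr2 macrophages (log2 fold change -2.10, SE 0.38, edgeR adjusted p = 0.00138). Laptm5 (-1.16) and Man2b1 (-0.91) were the other 2 lower members, and the calls of Man2b1 and Npc1 held under 6 and 7 of the 11 alternatives. This count moved with the method: 5 members without the library as a block, 14 with the older form of the edgeR dispersion and 16 with DESeq2. Of all 7945 genes, 552, 1568 and 1229 were called in these 3 settings.

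Other genes of lysosomal function, 52 listed by function and 48 of them tested, showed 5 higher and 0 lower calls in resident against Folr2 macrophages, with a median log2 fold change of 0.03, where 5.94% and 3% of all genes were called. Among them were Sort1, a sorting receptor for lysosomal proteins (4.16, SE 0.56, edgeR adjusted p = 6.66e-05), Hgsnat, an enzyme of heparan sulfate breakdown like Naglu (1.91), the protease Ctsd (1.78) and Aga (1.37). The member Hexa, a hydrolase, was not called in this comparison, at 204 and 264 CPM against 174 and 184 (log2 fold change 0.34, 95% interval -0.21 to 0.89). Folr2 macrophages had 0 of 48 called by edgeR against monocyte-derived macrophages and against monocytes, with medians of 0.05 and 0.18. Of all genes 0.0629% and 1.13% were called in these 2 comparisons, so both counts are near the background. Against neutrophils 19 were higher and 3 lower, where 28.8% and 25.2% of all genes were, the higher ones including the cathepsins Ctsl (3.07), Ctsz (2.15), Ctsb (2.10) and Ctss (1.75), and the lower ones being Cd63 and Cln3, whose libraries differed in direction, and the pump accessory subunit Atp6ap2 (-1.08, SE 0.35, edgeR adjusted p = 0.0158), whose single-library log2 CPM ratios were -0.01 and -0.87.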

How the data were processed

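The authors deposited, for each of 2 libraries, raw UMI counts per gene and cell barcode; per the submitters' processing notes the tool was Cell Ranger 3.0.1 and the build mm10. No source here gives the annotation or the use of strand. Filtering removed 25 and 61 barcodes (fewer than 300 genes, or a mitochondrial share above 10%) and 10 and 65 likely doublets, found by comparing cells with simulated pairs. Types were gated on fixed marker genes, with thresholds set after the marker distributions were seen, and counts were summed per type and library. Levels are CPM with exact Poisson intervals. Comparisons used edgeR 4.0.16 in R 4.3.3 (quasi-likelihood test, TMM scaling, filterByExpr, the library as a block since all types come from the same 2 libraries), with Benjamini-Hochberg adjustment over 7945 genes, and SE is the absolute log2 fold change over the root of F. The older quasi-dispersion form was run first. The newer form replaced it after a check on simulated data, with results of the older form already seen. Single-library ratios are of CPM with 0.5 UMIs added. Intervals of CPM, shares and count ratios cover counting error only. Those of log2 fold changes come from the edgeR fit and include its dispersion.

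The members and lists were chosen with earlier results of these data known. Named were called members with 1 direction in both libraries, the 10 largest in full, with pump paralogues, Tfeb and Tfe3 always given. Alternatives, with DESeq2 1.42.0 among them, are in the closing section. Promoter windows were credited to RefSeq and gene positions to GENCODE M21; stretches printed stop at the annotated gene start. One gene of the list of other lysosomal genes is not reported here by name.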

Additional observations from a re-analysis of the deposited data

How the results depend on the processing

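The counts of called members kept within 1.5 times of the reported ones under all 11 alternatives for resident against Folr2 macrophages (7 to 12 called, 7 of them without a replicate block), for resident macrophages against monocytes and for Folr2 macrophages against neutrophils (19 to 31, 27 without a replicate block), and stayed at 0 for both comparisons with monocyte-derived macrophages that had 0. For Folr2 macrophages against monocytes the count was 1 with DESeq2 and 1 with the stricter gates, Lgmn in both. For resident against monocyte-derived macrophages it was 5 with Leiden clusters. For Folr2 macrophages against dendritic cells it was 5 without the replicate block, 16 with DESeq2 and 14 with the older quasi-dispersion form, which was added after results were seen. The causes were not tested. Over all genes, the calls for Folr2 macrophages against monocytes numbered 90 as reported, 11 without the block and 275 with the older form, and those for resident against Folr2 macrophages 710 and, without the block, 383. Of 869 values of named members under the alternatives, 792 kept direction and side of the threshold, 67 lost the call, 4 gained it and 6 changed direction, none of the 6 called in the main analysis. These were Tfeb in Folr2 minus monocyte-derived macrophages (-0.50 with Leiden clusters), in Folr2 macrophages minus neutrophils (7.36 on the BC2 side, edgeR adjusted p = 0.0298, with 0 UMIs in library 1 neutrophils and 22 neutrophils left in library 2) and in resident minus monocyte-derived macrophages (0.0122 with stricter gates, 0.17 on the BC2 side), and Tfe3 in monocyte-derived macrophages minus monocytes (0.15 with stricter gates) and in Folr2 macrophages minus monocytes (-0.0118 with Leiden clusters). Scaling by relative log expression moved the median of all genes for Folr2 macrophages minus neutrophils from 0.16 to 0.28, and the BC2 side moved it to 0.67. Leaving out 1 library leaves single-library ratios with no test. Depth limits neutrophils of library 1, with 168800 UMIs, and resident macrophages, with 294296 and 412965 UMIs from 28 and 20 cells.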

Other observations

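Among the members too sparse to test, Arsb, the sulfatase that acts on dermatan sulfate, was the clearest by type. It gave 14 and 12 UMIs in dendritic cells (8.34 and 24.9 CPM) against 1 and 3 in Folr2 macrophages, ratios of 22 (exact 95% counting interval 3.35 to 930.2) and 20.6 (5.56 to 114). In gated T and NK cells of library 2 it gave 79 UMIs, 55.3 CPM. That class held 68 cells in library 2 and 4 in library 1, so it entered no test.

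Lymphoid cells were few in this myeloid sort, and their values for macrophage members came with macrophage markers. T and NK cells of library 2 showed Lgmn at 777 CPM and Psap at 1741 CPM, with macrophage marker genes (5 markers) summing to 4868 CPM and 33 of 68 cells cycling. B cells showed Lgmn at 175 and 368 CPM with the same markers at 8773 and 5025 CPM. The part of these markers in the lymphoid values was not tested. Ungated cells had Lgmn at 2040.4 and 1146 CPM, near the values of monocyte-derived macrophages, and Scarb2 at 76.5 and 91.4 CPM.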
